A study of Mus musculus with 20 samples.

Results

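A set of 10 genes, most of them best known from neurons or muscle, was followed across microvascular compartments of the healthy mouse kidney cortex. The set holds Myom2, Myl7, Gabrb1, Adgrl3, Dync1i1, Rab3b, Aplp1, Mapt, Rhpn1 and Clic3, of the 34255 genes in the deposited count table. The genes were selected on their high counts in the glomerular libraries against the other microdissected libraries, so their glomerular excess is described here without a test. All mice were WT males of strain C57BL6/OlaHsd, untreated, and the labels give no age. Glomeruli, Arterioles, Post-capillary venules and Peritubular capillaries were cut from cortex cryosections by laser microdissection, and Whole kidney sections were the reference, with 4 libraries in each of the 5 groups. Arterioles, glomeruli and venules were found by shape on hematoxylin slides, and capillaries with isolectin B4, a lectin that binds endothelium. A dissected compartment holds all cells inside the cut, so glomerular values pool podocytes, endothelium and mesangium.

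A glomerulus is a capillary tuft that filters blood into the urinary space. Its podocytes wrap the capillaries with branched processes that carry microtubules in their main branches and actin in their feet, a layout that resembles that of a neuron, and its mesangial cells are contractile. In neurons and striated muscle, the products of the set serve inhibitory signalling (Gabrb1), synaptic adhesion (Adgrl3), transport along microtubules (Dync1i1, Mapt), vesicle release (Rab3b), amyloid precursor-like functions at the cell surface (Aplp1) and the sarcomere (Myom2, Myl7). Rhpn1 encodes rhophilin, an adaptor protein, and Clic3 a chloride intracellular channel protein; neither is a gene of neurons or muscle in particular, and the whole set is therefore called the 10 glomerular genes below.

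The sequence before the start of each gene was searched for motifs of muscle, neuronal and podocyte regulators. RefSeq windows of 250 bases before the transcription start (build GRCm38.p6) were found for 7 of the 10 genes, in 10 windows, and 3 that overlap no other annotated gene are printed 5′ to 3′ on the gene's strand. Myl7 is shown because it held the only match to a muscle motif, the CArG box bound by serum response factor, which is in capitals. Aplp1 and Dync1i1 are shown for contrast, since none of the motifs searched matched there.
Myl7, chr11:5898783-5899032, minus strand: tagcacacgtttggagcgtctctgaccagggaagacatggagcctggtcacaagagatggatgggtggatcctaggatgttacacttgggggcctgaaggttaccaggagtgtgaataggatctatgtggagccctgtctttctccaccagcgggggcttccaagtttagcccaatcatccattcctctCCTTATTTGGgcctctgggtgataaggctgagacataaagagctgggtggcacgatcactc
Aplp1, chr7:30445583-30445832, minus strand: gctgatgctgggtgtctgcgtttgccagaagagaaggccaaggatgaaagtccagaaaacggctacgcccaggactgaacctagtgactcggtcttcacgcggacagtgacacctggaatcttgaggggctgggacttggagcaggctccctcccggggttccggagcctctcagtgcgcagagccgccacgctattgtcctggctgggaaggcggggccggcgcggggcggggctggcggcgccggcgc
Dync1i1, chr6:5725389-5725638, plus strand: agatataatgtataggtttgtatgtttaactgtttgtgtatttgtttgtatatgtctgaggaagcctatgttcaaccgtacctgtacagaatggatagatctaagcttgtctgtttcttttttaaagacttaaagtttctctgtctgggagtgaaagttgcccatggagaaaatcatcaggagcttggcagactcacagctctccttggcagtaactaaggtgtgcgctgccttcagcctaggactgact
The CArG box of Myl7 lay 61 to 52 bases before the start and read the same motif on both strands; 1.47% of all 32851 windows of this length hold one. The G and C content was 52.8% in the Myl7 window, 66% in the Aplp1 window and 40.8% in the Dync1i1 window. TATAAA matched in a window of Rab3b and in a window of Adgrl3, against 12.4% of all windows. On either strand, no window of the set held a MEF2 box (0.508% of all windows), CAGCTG (13%), TAATTA (4.84%), TGCTGAC (3.81%), GTAAACA (3.17%), GCGTGGGNG (1.65%) or TTCAGCACC (0.301%). These matches describe letters and not bound sites. Myom2, Mapt and Rhpn1 had no window in the sequence table.

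Libraries held 4639090 to 12283098 counts, and a level is given as CPM, a library's counts over its total after scaling by its TMM factor, with each total brought to the same size. At these depths 3 counts equal 0.206 to 0.640 CPM, depending on the library. All counting intervals below cover counting error only and leave out the spread between libraries. They describe the contrast on which the genes were selected and are no test of it. The labels call the samples biological replicates without naming animals, and p-values therefore reflect no more than the spread between the libraries. Libraries are named by group and column number, and the column of capillary 96 carries extra letters of unknown meaning. In bulk tissue, fewer cells of a type and less RNA per cell cannot be told apart. Whole kidney libraries were made with fewer PCR cycles and without the low-input protocol, so preparation and tissue cannot be told apart in any comparison with them.

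Of the 10 genes, 9 had nearly all of their summed group means in glomeruli. For these, the glomerular share of the 5 group means was 95.5% to 98.2%, and that of whole kidney 1.00% to 3.20%. Every glomerular library lay above every other library for all 10 genes, which their selection favours. The share of all genes with such a gap was not counted. For the 9 genes, the lowest glomerular library exceeded the highest of the 12 other microdissected libraries by 13.5-fold to 111-fold. It exceeded the highest whole kidney library by 6.0-fold to 72.2-fold. Mapt differed, with 50.1% in glomeruli, 24.0% in peritubular capillaries, 12.2% in post-capillary venules, 10.5% in whole kidney and 3.25% in arterioles.

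**Figure D1:**
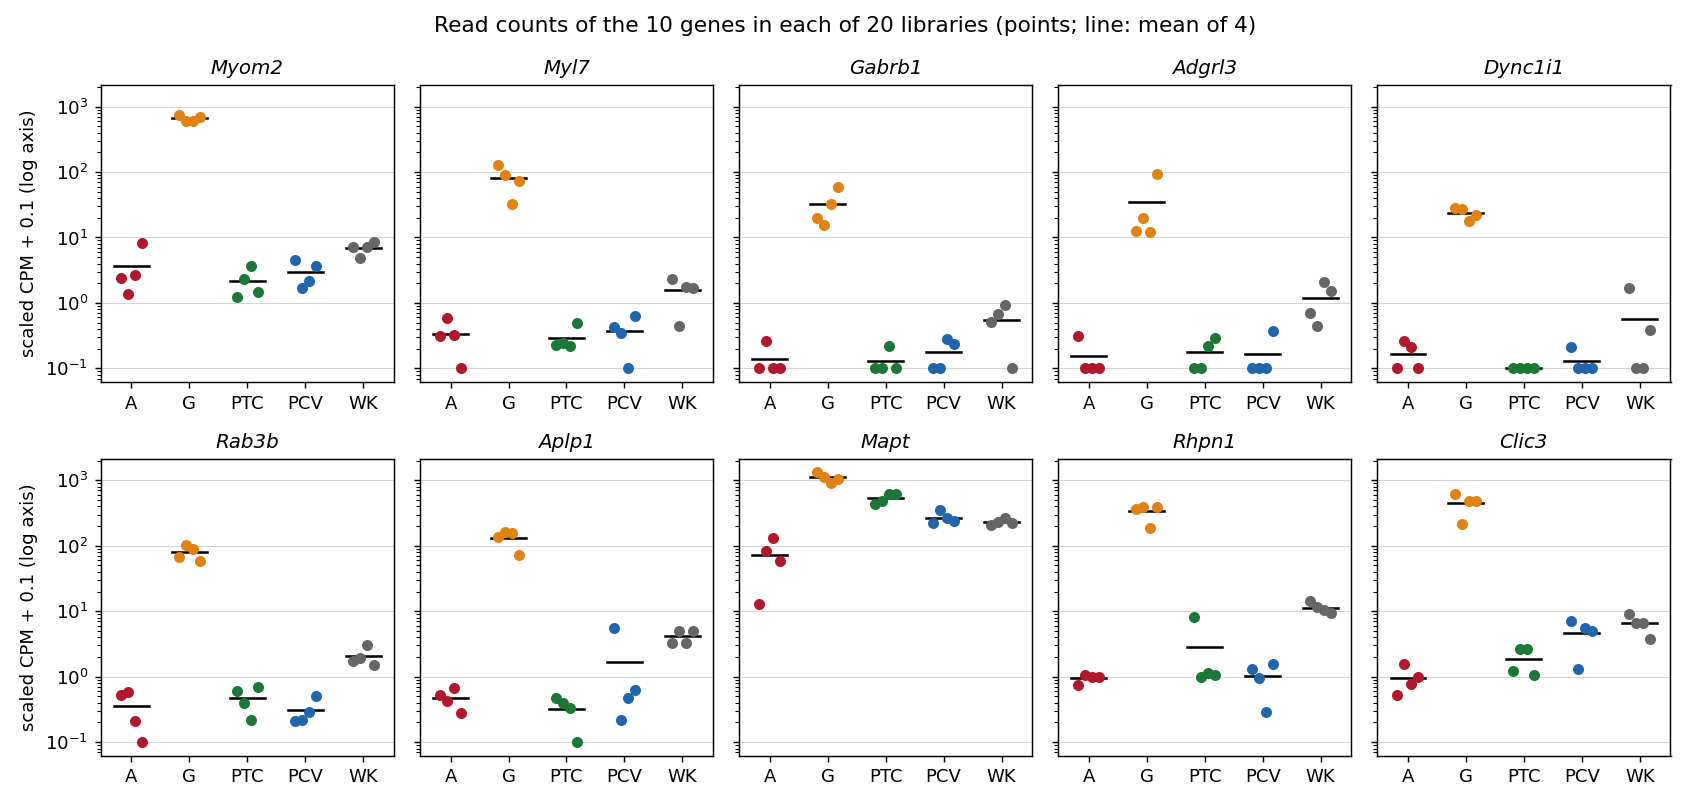
Level of each of the 10 genes in all 20 libraries, as scaled CPM plus 0.1 on a log axis, for arterioles (A), glomeruli (G), peritubular capillaries (PTC), post-capillary venules (PCV) and whole kidney (WK), with 1 point per library. For 9 genes the 4 glomerular points stand apart from all others, and for Mapt all groups are far above 0.

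Myom2 encodes myomesin 2, a protein of the sarcomere M-band that ties myosin filaments together. Its glomerular libraries read 755, 600, 608 and 686 CPM (libraries 93, 96, 98 and 100), against 1.29 to 8.03 in arterioles, 1.12 to 3.61 in peritubular capillaries and 1.58 to 4.37 in post-capillary venules. The 4 glomerular values were the closest together of the set, with a coefficient of variation of 11%. Whole kidney libraries read 7.09, 4.72, 6.99 and 8.31 CPM (6.78 ± 1.5, SD, n = 4), and they overlapped arterioles, the next group in order. The glomerular mean was 233 times that of the other 3 compartments.

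Myl7, the atrial myosin regulatory light chain, read 129, 89.6, 31.8 and 71.8 CPM in glomeruli (80.5 ± 40.3, SD, n = 4). The 12 libraries of the other compartments held 20 counts in all against 3157 in glomeruli, and none exceeded 0.536 CPM. Whole kidney read 2.23, 0.346, 1.64 and 1.61 CPM, which overlapped venules at the low end. The mean ratio of glomeruli to the other 3 compartments was 343, and to whole kidney 55.3.

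Gabrb1, the beta 1 subunit of the GABA-A receptor, a chloride channel opened by the transmitter GABA, read 20.03, 15.6, 32.4 and 59.9 CPM in glomeruli (32.0 ± 19.9, SD, n = 4), from 200, 141, 416 and 543 counts. Outside them, 4 counts were found over the 12 other microdissected libraries, 1 each in arteriole 96, capillary 98, venule 98 and venule 100. The ratio of pooled levels was 666 (exact binomial 95% interval 260 to 2450). Whole kidney libraries read 0.405, 0.576, 0.822 and 0 CPM, and the glomerular mean was 70.9 times theirs. Gabrb1 had the highest glomerular share of all 5051 genes with at least 10 CPM in every glomerular library. Its selection on glomerular counts fixed this rank in part.

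Adgrl3 encodes latrophilin 3, an adhesion receptor of synapses. Its glomerular libraries read 12.4, 19.4, 11.9 and 94.2 CPM (34.5 ± 39.9, SD, n = 4), so glomerular 100 stood far above the rest, and the mean without it was 14.6 ± 4.21 (SD, n = 3). The other 12 microdissected libraries held 5 counts together, for a pooled ratio of 536 (exact binomial 95% interval 229 to 1654). The ratio of mean levels was 522, and 221 without glomerular 100, which is below that interval. Whole kidney libraries read 0.608, 0.346, 1.99 and 1.42 CPM and did not overlap any other group, and the ratio to them fell from 31.7 to 13.4 without glomerular 100. In the same library Nphs1, which encodes nephrin of the podocyte slit diaphragm, read 738 CPM against 136, 114 and 163 in the other 3 glomerular libraries. Other podocyte markers went the other way there: Podxl read 2671 CPM against 3262 to 4561 and Wt1 189 against 286 to 452, and the sum of the podocyte list (11467 CPM) lay within the range of the other 3. The part of these values in the Adgrl3 level was not tested.

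Dync1i1, an intermediate chain of cytoplasmic dynein 1, the motor that carries cargo towards microtubule minus ends, read 27.9, 27.4, 17.9 and 21.7 CPM in glomeruli (23.7 ± 4.80, SD, n = 4), from 954 counts. Only 3 counts were found elsewhere among microdissected libraries, in arterioles 96 and 98 and venule 93. The pooled ratio was 652 (exact binomial 95% interval 222 to 3168). Peritubular capillaries held no count, and the glomerular level was at least 222-fold higher at a floor of 3 counts over that group. The ratio of mean levels was 740, and 1164 without arteriole 96. Whole kidney libraries held 16, 0, 0 and 3 counts, so the ratio of 49.9 rested on whole kidney 93 and was 251 without it.

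Rab3b, a small GTPase of secretory vesicles, read 67.3, 101, 89.1 and 58.1 CPM in glomeruli (78.9 ± 19.7, SD, n = 4). The other microdissected libraries lay between 0 and 0.587 CPM. In whole kidney the levels were 1.62, 1.84, 2.95 and 1.42 CPM, above all 12 of them and below all glomeruli. The glomerular mean was 284 times that of the other compartments and 40.3 times that of whole kidney.

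Aplp1, an amyloid precursor-like membrane protein, read 135, 163, 157 and 72.8 CPM in glomeruli (132 ± 41.3, SD, n = 4). Arterioles read 0.178 to 0.562 CPM and peritubular capillaries 0 to 0.373. Among venules, venule 93 read 5.38 CPM from 48 counts, and the other 3 read 0.122, 0.371 and 0.536. The ratio of glomeruli to the other 3 compartments was 180, and 425 without venule 93. Venule 93 was also high in Nphs1, at 7.62 CPM against 0.185 to 0.972 in the other venules, but its Wt1 (4.48 CPM) and its podocyte sum (1027) lay within the range of the other venules, and whether the values share a source was not tested. The whole kidney libraries read 3.14, 4.95, 3.22 and 4.82 CPM, which overlapped venules through venule 93.

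Rhpn1, the rhophilin gene, read 367, 390, 188 and 395 CPM in glomeruli (335 ± 98.7, SD, n = 4), and without the low glomerular 98 the mean was 384 ± 15.1 (SD, n = 3). Capillary 93 read 7.95 CPM from 64 counts, while the other 11 microdissected libraries outside glomeruli lay between 0.185 and 1.47. The ratio to the other compartments was 223, and 366 without capillary 93. Nphs1 was likewise high in capillary 93, at 5.84 CPM against 0.737 to 1.17 in the other 3 capillary libraries, where Wt1 (1.12 CPM) was within their range and the podocyte sum was 760 against 521 to 651. The part of these values in the Rhpn1 level was not tested. Levels in whole kidney were 14.1, 11.4, 10.3 and 9.16 CPM, above all 12 of the other compartments.

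Clic3 read 616, 214, 488 and 490 CPM in glomeruli (452 ± 169, SD, n = 4), with glomerular 96 the low one (531 ± 73.1 without it, SD, n = 3). Arterioles read 0.426, 1.45, 0.674 and 0.892 CPM, peritubular capillaries 1.12, 2.51, 2.57 and 0.978, and venules 7.06, 1.22, 5.37 and 4.82. Venules thus lay above most libraries of the other 2 groups, with venule 96 among them. In whole kidney Clic3 read 9.11, 6.57, 6.44 and 3.68 CPM and overlapped venules. The ratio of glomeruli to the other 3 compartments was 187.

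**Figure D2:**
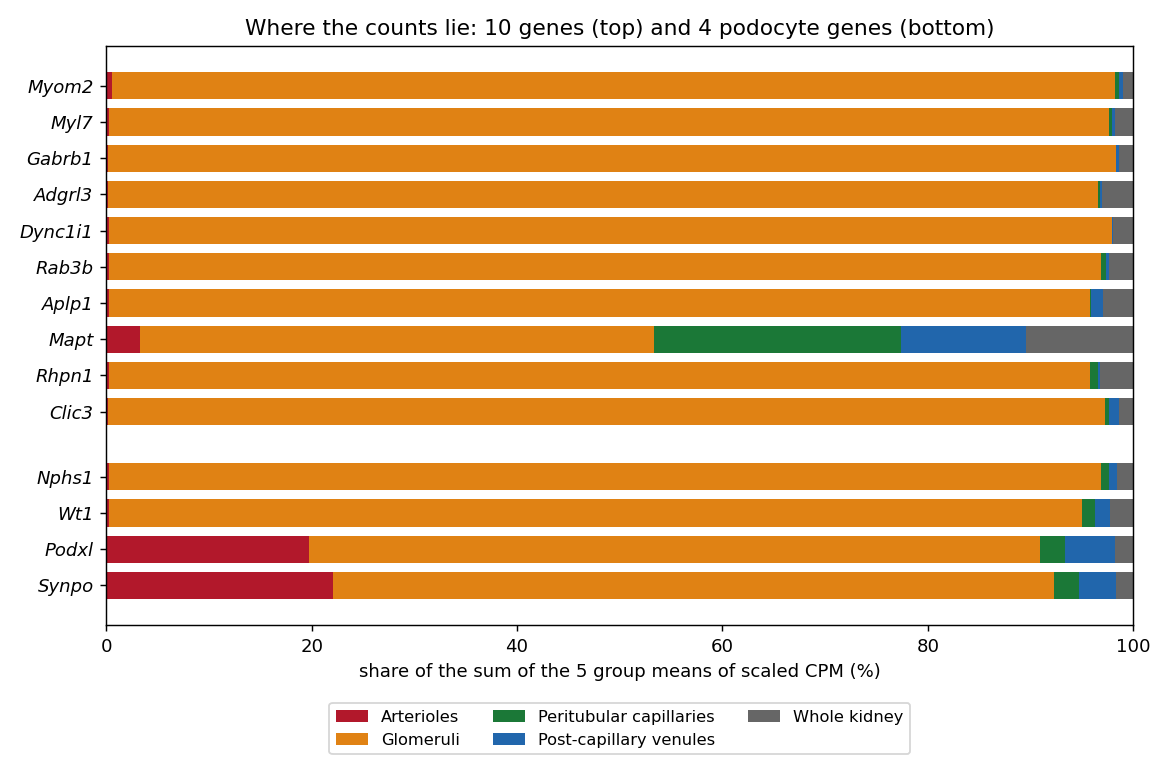
Share of the 5 group means (percent, stacked to the full bar) in each compartment for the 10 genes and for 4 podocyte genes, Nphs1, Wt1, Podxl and Synpo. Glomeruli take 95.5% to 98.2% of 9 genes and 50.1% of Mapt.

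Mapt, which encodes the microtubule-associated protein tau, was the gene of the set with substantial counts everywhere. Glomeruli read 1329, 1140, 914 and 1050 CPM (1108 ± 174, SD, n = 4), peritubular capillaries 428, 481, 610 and 607 (532 ± 91.4), and post-capillary venules 226, 352, 262 and 239 (270 ± 56.8). Whole kidney libraries read 211, 230, 261 and 224 CPM (232 ± 21.2, SD, n = 4), and arterioles 12.6, 83.9, 133 and 57.5 (71.8 ± 50.5). The order was glomeruli, peritubular capillaries, post-capillary venules, whole kidney and arterioles, and among neighbours in it, venules and whole kidney alone overlapped. The glomerular mean was 2.08 times that of peritubular capillaries, 4.11 times that of venules and 15.4 times that of arterioles.

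**Figure D3:**
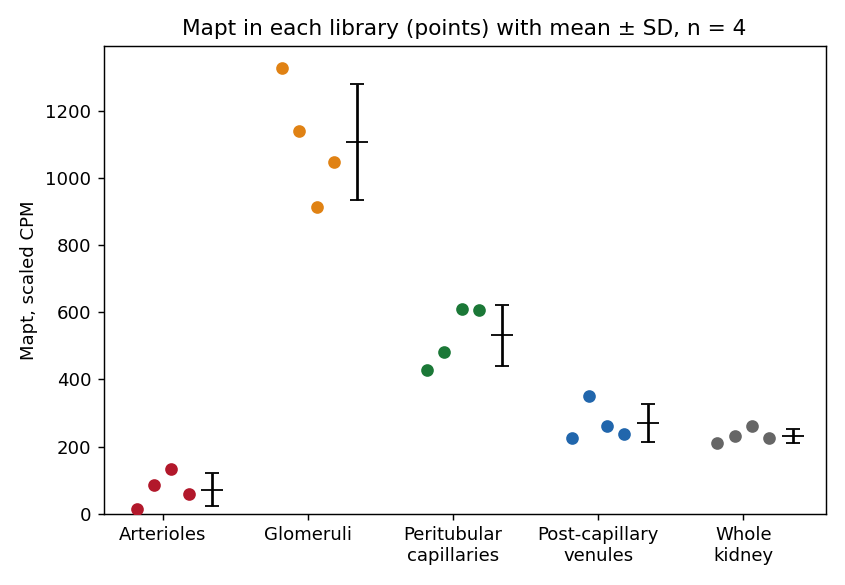
Mapt level (scaled CPM, linear axis from 0) in each library, with the mean and SD of each group of 4. Peritubular capillaries (428 to 610 CPM) lie between glomeruli (914 to 1329) and venules (226 to 352), and arterioles (12.6 to 133) are lowest.

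Arterioles, peritubular capillaries and post-capillary venules were not used to rank these genes against each other, so differences among the 3 were tested, by edgeR's quasi-likelihood test with Benjamini-Hochberg adjustment over 12179 genes. Only Myom2, Mapt and Clic3 had enough counts in these 12 libraries to pass the filter on low counts without the glomerular ones. Mapt passed the test (adjusted p = 0.000522 by edgeR), as did 9.8% of all genes, while the adjusted p was 0.0957 for Clic3 and 0.754 for Myom2. Mapt was lower in arterioles than in peritubular capillaries by a log2 difference of -2.89 (SE 0.515, adjusted p = 0.000157 by edgeR), lower in all 4 libraries against all 4; 11.2% of all genes were called in this pair. Arterioles were also below venules, at -1.91 (SE 0.497, adjusted p = 0.0189 by edgeR), where 4.38% of genes were called. That call was lost when only the libraries of the compared groups were fitted (-1.92, adjusted p = 0.0829) and without venule 96 (-1.76, adjusted p = 0.0657). Between peritubular capillaries and venules the difference was 0.97 (SE 0.484, adjusted p = 0.451 by edgeR), where 0.411% of genes were called.

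For Clic3 the log2 difference between arterioles and venules was -2.40 (SE 0.814, adjusted p = 0.0796 by edgeR), and it was called with library totals in place of TMM (-2.81, adjusted p = 0.0192) and by DESeq2 (-2.15, adjusted p = 0.0246). The other 7 genes entered the fit only through their glomerular counts, so no test among the 3 compartments is given for them. In the 12 libraries Mapt held 25246 counts, Myom2 239 and Clic3 213, against 136 for Rhpn1, 72 for Aplp1, 22 for Rab3b, 20 for Myl7, 5 for Adgrl3, 4 for Gabrb1 and 3 for Dync1i1.

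Whole kidney contains glomeruli, and the 10 genes were selected on low counts in the 12 other microdissected libraries, so a comparison of these is a description fixed in part by the selection. The whole kidney mean exceeded that of the 12 other microdissected libraries for 9 genes, by 2.38-fold for Myom2 and 2.66-fold for Clic3 up to 16.5-fold for Adgrl3. Mapt went the other way, with a ratio of 0.796. Whole kidney stood without overlap above arterioles, capillaries and venules for Adgrl3, Rab3b and Rhpn1, and overlapped the next group for Myom2, Myl7, Gabrb1, Dync1i1, Aplp1 and Clic3. The share of all genes without such an overlap was not counted.

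Within glomeruli, the 10 genes did not share an order of libraries. Glomerular 93 was the highest library for Myom2, Myl7, Dync1i1, Mapt and Clic3, glomerular 100 for Gabrb1, Adgrl3 and Rhpn1, and glomerular 96 for Rab3b and Aplp1. Glomerular 98 was the lowest for Myl7, Adgrl3, Dync1i1, Mapt and Rhpn1. The coefficient of variation over the 4 libraries ran from 11% for Myom2 to 116% for Adgrl3, beside a median of 57.8% and quartiles of 37.3% and 83.6% over the 8873 genes with a mean of at least 10 CPM in glomeruli.

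**Figure D4:**
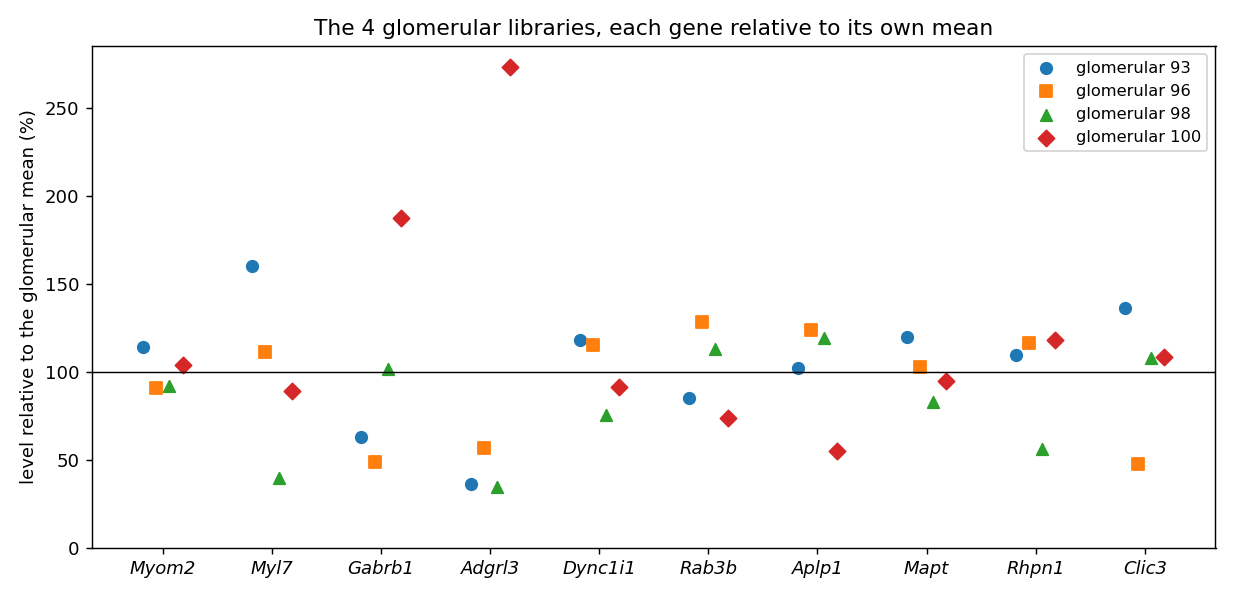
Level of each of the 10 genes in the 4 glomerular libraries as percent of the gene's glomerular mean, with 1 marker shape per library. Myom2 stays within 90.6% to 114%, while Myl7 spans 39.5% to 160% and Gabrb1 48.7% to 187%, and glomerular 100 reads 273% for Adgrl3.

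The cell types behind the names were checked with marker lists, and relatives of the genes were compared between glomeruli and the mean of the other 3 compartments, called at an adjusted p under 0.05 and a log2 difference beyond 1 in edgeR's quasi-likelihood test. Over all genes, 2.45% were called higher and 1.32% lower, and the median log2 difference was 0.11. Against whole kidney, 1.59% were called higher and 1.47% lower, with a median of 0.25. Of 19 podocyte markers, 14 were higher and 0 lower in glomeruli against the other compartments (median 4.88), and their summed level was 10999 to 12223 CPM per glomerular library against 521 to 760 in peritubular capillaries. In arterioles the podocyte sum was 3242 to 4577 CPM, led by Actn4 (1036), Podxl (985) and Sema3g (795), while Nphs1 averaged 0.659 there and 288 in glomeruli. Of 11 glomerular endothelial markers 7 were higher (median 3.64), as were 4 of 10 tested mesangial and pericyte markers (median 1.67), and 0 of 7 tested parietal epithelial markers (median 0.70; 2 at an unadjusted p under 0.05, 0 by DESeq2). Smooth muscle contractile genes were lower for 4 of 10 tested (median -1.23) and proximal tubule genes for 9 of 12 (median -1.80).

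Defining markers of neurons and striated muscle were at or near 0 in glomeruli. Of 21 neuron and Schwann cell markers, 11 held no count in any glomerular library, and the list summed to 9.94 to 39.0 CPM there. This was not particular to glomeruli. In peritubular capillaries 14 held no count (sums of 7.04 to 42.0 CPM), in venules 12 (15.3 to 70.6) and in arterioles 10 (48.0 to 571). In whole kidney 3 held no count, and sums were 14.7 to 24.3 CPM. Snap25, the synaptic fusion protein, was at 0 in all 16 microdissected libraries, and Th, the catecholamine enzyme, in all 20. Stmn2, a neuronal microtubule regulator, averaged 178 CPM in arterioles and 5.11 in glomeruli. Of 24 striated and cardiac muscle markers 13 held no glomerular count. The list summed to 14.9 to 39.8 CPM in glomeruli and 49.7 to 708 in arterioles. These zeros were likewise not particular to glomeruli, as 13 markers held no count in arterioles, 14 in peritubular capillaries and 14 in venules. Sums in capillaries and in venules overlapped those in glomeruli. Whole kidney had 3 muscle markers without a count, and its sums of 10.5 to 14.2 CPM lay below all glomerular sums. Myh1, Myh2 and Tnni1 were at 0 in all 20 libraries, while Pln, the regulator of the cardiac calcium pump, averaged 326 CPM in arterioles and 10.8 in glomeruli. Of the 5 neuron and 4 muscle markers with enough counts to test, 0 were called higher by edgeR or by DESeq2 (0 and 1 at an unadjusted p under 0.05).

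Relatives of the 2 sarcomere genes were compared first. Among 5 tested M-band and myosin-binding genes 0 were called (median -0.48; 0 at an unadjusted p under 0.05 and 0 by DESeq2), and Myom1, the paralog of Myom2, averaged 398 CPM in arterioles and 38.8 in glomeruli. Among 6 tested myosin light chain genes 0 were called against the other compartments (median 0.71; 1 at an unadjusted p under 0.05, 0 by DESeq2). The nearest was Myl6, the non-muscle essential light chain (log2 difference 1.05, adjusted p = 0.0503 by edgeR), which was called in 5 of 16 single-library omissions. Against whole kidney, Myl6 (3.58), Myl9 (2.83) and Mylk (2.18) were higher.

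Of 20 other GABA-A subunit and scaffold genes, 6 passed the filter on low counts and 0 of these were called (median -0.10; 0 at an unadjusted p under 0.05 and 0 by DESeq2). Gabra3 averaged 8.20 CPM in glomeruli, 39.3 in arterioles and 41.5 in venules. Gabra4, the alpha 4 subunit gene, starts head to head with Gabrb1 on the opposite strand (chr5:71569749-71658308, GRCm38), with 46 exon bases shared. It read 8.61, 0.221, 14.2 and 11.4 CPM in glomeruli. It did not pass that filter, and was called higher where other filters (a mean of at least 10 counts, or none, where Gabrp was called too) or 13 of 16 single-library omissions let it in. It held 373 glomerular counts, 1 count in the other 12 microdissected libraries and 11 in whole kidney. With no strand setting stated for the counting, reads in the shared bases cannot be assigned to either gene with certainty. Those bases lie at the starts of both genes, while these libraries yield reads near transcript ends.

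Of 14 tested latrophilins and related ligands and receptors, 4 were higher in glomeruli (median 2.07), and 0 were called against whole kidney; DESeq2 called 3 against the other compartments, and leaving out single libraries gave 1 to 4. Without a filter or with a mean of at least 10 counts, 2 were called (Flrt2 and Unc5b), and without glomerular 93, 98 or 100 Unc5b alone. The 4 were the netrin receptor Unc5b (3.34, adjusted p = 0.00538), the latrophilin ligand Flrt2 (4.68, adjusted p = 0.0263), the teneurin Tenm2 (5.74, adjusted p = 0.0364) and the neurexin Nrxn3 (5.36, adjusted p = 0.0386), all by edgeR. Flrt2 averaged 53.4 CPM in glomeruli against 9.96 in arterioles and 0.398 in peritubular capillaries. Unc5b averaged 91.7 CPM in glomeruli but 117 in arterioles, so its log2 difference rested on capillaries (15.2) and venules (0.402). Tenm2 at 8.64 ± 7.34 and Nrxn3 at 7.41 ± 7.75 CPM (SD, n = 4) had glomerular libraries at or near 0.

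The other neuronal families had 0 called genes by edgeR with the filter used here. For dynein and dynactin, 20 were tested (median 0.04; 1 at an unadjusted p under 0.05, 0 by DESeq2), and Dync1i2, the broadly used intermediate chain, averaged 606 CPM in glomeruli and 439 in arterioles. For Rab3 and regulated exocytosis, 19 were tested (median 0.63; 1 higher and 1 lower at an unadjusted p under 0.05, and 1 lower by DESeq2), and Rab3a averaged 32.0 CPM in glomeruli and 101 in arterioles. Of this list Rab3c, Rims3, Unc13d and Syn1 (4 genes) were called higher with no filter, Unc13d (1) with a mean of at least 10 counts and Sytl4 (1) without venule 96. For the amyloid precursor family and its processing enzymes, 19 were tested (median 0.45; 1 higher and 1 lower at an unadjusted p under 0.05, and as many by DESeq2). App and Aplp2 were present in all groups, with App at 805 CPM in glomeruli and 1002 in peritubular capillaries and Aplp2 at 607 and 436. For microtubule-associated proteins, 14 were tested (median 0.51; 5 higher at an unadjusted p under 0.05, 2 by DESeq2), led by Stmn1 (4.25, adjusted p = 0.0852) and Map1a (3.28, adjusted p = 0.0861), by edgeR. Both were called without venule 93 and Stmn1 without capillary 96, and Kif5c was called with no filter and with a mean of at least 10 counts. Against whole kidney Map4 was called (2.95, adjusted p = 0.00414 by edgeR).

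Rhpn2, the paralog of Rhpn1, averaged 2.27 CPM in glomeruli and 62.6 in arterioles. The arteriole libraries 93, 96, 98 and 100 were uneven, at 131, 0, 17.2 and 102 CPM. Capillary 98 read 27.4 CPM, and the other capillary libraries at most 0.147. Of 8 tested genes of the chloride intracellular channel list 2 were higher (median 0.56), Clic5, known from the podocyte foot process (2.65, adjusted p = 0.00679), and its partner Slc9a3r2 (2.10, adjusted p = 0.00222), both by edgeR; DESeq2 called 1. Clic5 averaged 444 CPM in glomeruli and 61.8 to 83.4 in the other compartments, while Slc9a3r2 averaged 507 in glomeruli and 654 in arterioles. Clic1 joined them against whole kidney (2.74, adjusted p = 0.0267 by edgeR). With library totals in place of TMM, where the median of all genes moved to 0.65, the amyloid and dynein lists had 1 called gene each, the microtubule list 3 and the myosin list 2.

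**Figure D5:**
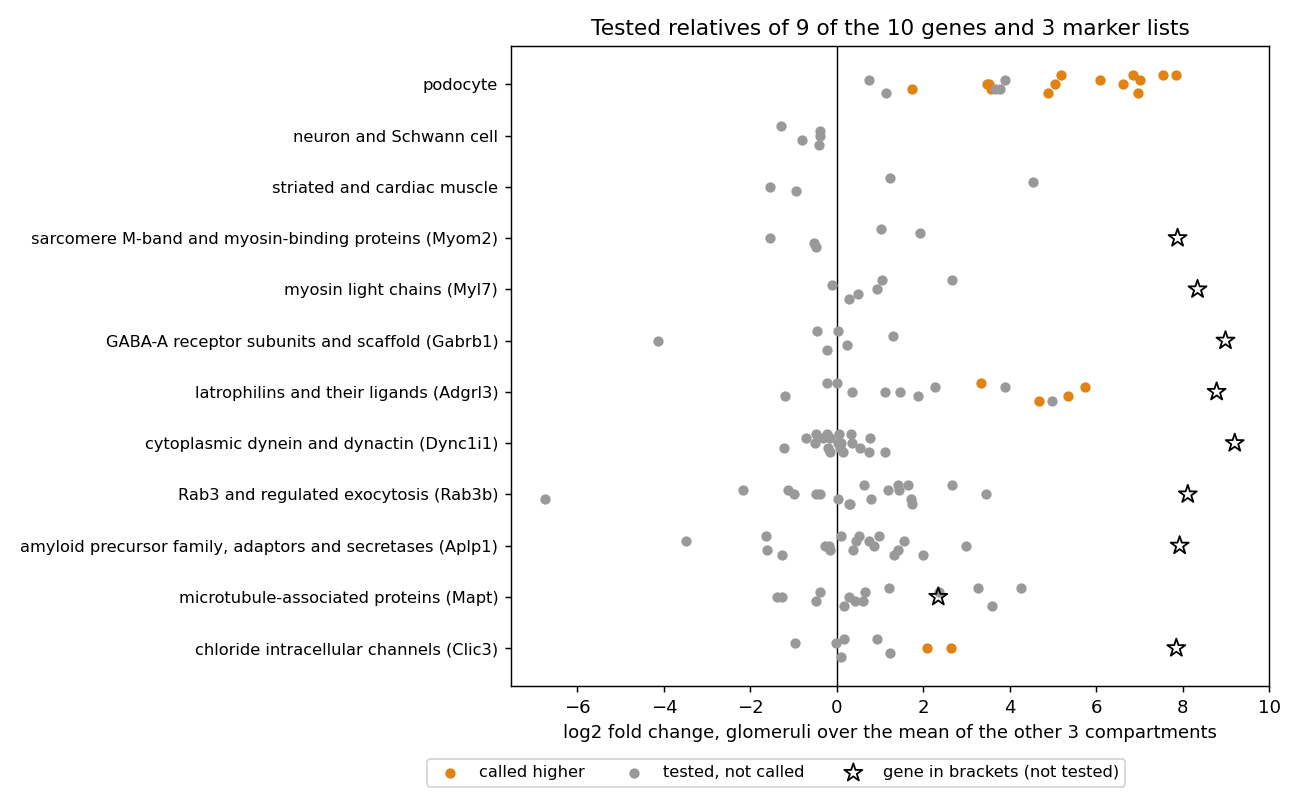
Log2 difference of glomeruli from the mean of the other 3 compartments for each tested gene of 3 marker lists and of 9 family lists, with called genes in orange, other tested genes in grey and 9 of the 10 glomerular genes (all but Rhpn1), which were not tested, as open stars. The stars other than Mapt (2.35) lie between 7.86 and 9.21, and called relatives appear in the podocyte, latrophilin and chloride channel lists.

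Genes with the most similar profile were sought among 5041 other genes with at least 10 CPM in every glomerular library, by the summed difference of the 5 group shares divided by 2, in percentage points. Among the nearest to the mean profile of all 10 genes, Mapt included, were Cdkn1c (1.18 points), Wipf3 (2.41), Ptpro (2.53), Wt1 (2.53), Hs3st3b1 (2.69), Pcdh12 (2.82), Rassf10 (2.83), Usp13 (2.95) and Hs3st6 (2.97). Mapt, at 50.1% in glomeruli, lowers the glomerular share of this mean below the 95.5% to 98.2% of the other 9 genes. The glomerular share was 91.9% for Cdkn1c, 91.2% for Hs3st3b1 and 91.0% for Pcdh12, so their nearness to the mean depends on Mapt. Cdkn1c, Ptpro and Wt1 are on the podocyte list. The selection on glomerular counts favours glomerular genes as neighbours, and the share of podocyte markers among similarly glomerular genes was not counted. For single genes, the nearest named gene was Wt1os for Myom2 (0.290 points), Gabrb1 (0.844) and Dync1i1 (0.890), and Ddn, which encodes dendrin of the podocyte slit diaphragm and of dendrites, for Clic3 (0.244) and Myl7 (0.571). It was Tmem54 for Rab3b (0.145), Hs3st6 for Aplp1 (0.415), Wif1 for Adgrl3 (0.684), Rassf10 for Rhpn1 (0.744) and Rapgef3 for Mapt (5.35). These distances rest on 5 group means from the same 20 libraries. By glomerular share, 268 of 5051 genes stood above Mapt and at most 16 above any of the other 9, ranks fixed in part by the selection.

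The genes lie apart in the genome, on 8 chromosomes of GRCm38. Myom2 is at chr8:15057653-15133541, Myl7 at chr11:5896637-5898782, Gabrb1 at chr5:71658113-72149037, Adgrl3 at chr5:81020138-81825133 and Dync1i1 at chr6:5725639-6028039. Rab3b is at chr4:108879063-108943324, Aplp1 at chr7:30434982-30445535, Mapt at chr11:104231390-104332090, Rhpn1 at chr15:75704280-75715485 and Clic3 at chr2:25456838-25458776. Of 10 tested protein-coding neighbours 1 was higher in glomeruli, Top1mt, the mitochondrial topoisomerase gene next to Rhpn1 (4.64, adjusted p = 0.0148 by edgeR), at 150, 97.1, 63.4 and 55.0 CPM in glomeruli and 12 to 16.2 in whole kidney. Its venule libraries read 0.560, 0.122, 11.3 and 32.5 CPM and its capillary libraries 10.8, 39.2, 0.233 and 0.391. Aplp1 lies beside Kirrel2, at 0 in all 20 libraries, with Nphs1 beyond it (chr7:30458315-30487223). Clic3 lies inside Paxx on the opposite strand without shared exon bases. Antisense genes share 1582 exon bases with Adgrl3 and 317 with Rab3b, and the deposited counts hold no entry for either of these antisense genes. The overlap with Rab3b covers the end of that gene, near which these libraries yield reads. With no strand setting stated, reads there cannot be assigned with certainty.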

How the data were processed

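Total RNA from microdissected compartments and whole kidney sections was made into QuantSeq 3′ FWD libraries, which yield a read near the 3′ end of each transcript. The authors used bbduk for trimming, STAR 2.7 for alignment to GRCm38.p6 and HTSeq 0.13 for counts per gene; versions are from the submitters' processing notes, which also name GRCm39, and neither the strand setting nor molecular identifiers are described in the sources. The authors deposited raw counts with no normalization, in 168 value columns, of which 20 belong to the samples here and 148 were not used. Columns were assigned by the section and treatment in the header lines. No pair of libraries held identical values.

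Counts were fitted in R 4.3.3 with edgeR 4.0.16 (TMM, filterByExpr, quasi-likelihood test, Benjamini-Hochberg adjustment over all genes): 16 microdissected libraries with 12179 genes, and all 20 with 13813 genes for whole kidney. The scripts were tested on simulated data. DESeq2 1.42.0, other scalings, filters, sample sets and single-library omissions were alternatives. The 10 genes and all lists were chosen with earlier results of these data known. Named genes were the 10, up to 4 genes per list with the smallest p, up to 2 against the list's median, all genes in counts of 5 or fewer, and the nearest profiles; genes shown for contrast beyond these were chosen after their values were seen. Marker and family lists are descriptions without a set test. Positions are from GENCODE M21 of GRCm38, counted from 1. Promoter sequence is from RefSeq. Some listed genes and 1 family list are not reported here.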

Additional observations from a re-analysis of the deposited data

Results flagged for a closer look

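In 49 groups of 4 libraries that could be tested for a single distant library, 10 held a library whose gap to the nearest of the others exceeded Dixon's 95% critical value; chance alone gives about 1 in 20 groups. Of these, 4 rest on more than a few counts. Adgrl3 in glomerular 100 read 94.2 CPM, against 11.9 to 19.4 in the other 3 glomerular libraries. Rhpn1 in glomerular 98 read 188 CPM, against 367 to 395. Rhpn1 in capillary 93 read 7.95 CPM (64 counts), against 0.885 to 1.05 in the other capillary libraries. Aplp1 in venule 93 read 5.38 CPM (48 counts), against 0.122 to 0.536 in the other venules. The other 6 are single libraries at the edge of detection, in groups where the remaining libraries were at or near 0. They were Myl7 in capillary 100 at 0.391 CPM, Gabrb1 in arteriole 96 at 0.161 and in capillary 98 at 0.117, Adgrl3 in arteriole 93 at 0.213 and in venule 100 at 0.268, and Dync1i1 in venule 93 at 0.112.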

How the results depend on the processing

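The count of genes that differed among arterioles, capillaries and venules was 1194, and became 2391 with DESeq2 and 713 with only the compared libraries. Of the 10 genes, 7 of which entered the fit only through glomerular counts, 1 was called, and 2 with library totals or DESeq2, when Clic3 joined Mapt. Genes higher in glomeruli than in the other compartments numbered 298, and 564 with library totals, 1429 with no filter and 704 with a mean of at least 10 counts. The share of higher calls was 64.9%, 90.8% with library totals, 82.4% with no filter, 78.1% with the mean filter and 42.4% with DESeq2. Against whole kidney the count was 219, 423 with DESeq2 and 1508 with only the compared libraries. Leaving out single libraries gave 1001 to 1289, 1 to 1, 242 to 448 (448 without arteriole 93) and 115 to 310 for these 4 counts. For whole kidney, the count was 115, 119, 115 and 124 without whole kidney 93, 96, 98 and 100, and 144 without glomerular 96. Fitting only the compared groups gave no new value for glomeruli against the other 3, since all 4 groups are compared. The cause of these shifts was not tested. No fitted difference that was called for the 10 genes changed sign. Mapt was lower in arterioles than in capillaries and in venules in all 7 alternatives and 16 omissions; the call against capillaries held in each of these, and that against venules in 6 of 7 and 15 of 16. Genes with 3 to 5 counts outside glomeruli limit any order among those compartments.

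The paper states that each mouse gave 1 slide for arterioles, glomeruli and venules and another for capillaries. Whether the column numbers name these mice and so pair the libraries was not settled. The main fits used no pairing, so any libraries from the same mouse were treated as independent. Over 40 same-number pairs, deviations from the group means correlated only between -0.0535 and 0.0844, with 0 pairs over 0.1. However, 12 of 20 libraries were nearest to a library of their own number, more often than random numbering would give. With the number as a replicate block the counts were 935, 1, 312 and 215.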

Other observations

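BB014433, a predicted protein-coding gene next to Myom2, held 320 counts (24.9 CPM) in glomerular 98 and 413 counts (45.6 CPM) in glomerular 100, and no count in the other 18 libraries. Myom2 itself was close to even over the same 4 glomerular libraries. BB014433 was chosen after its values were seen, and its distance of 11574 bases from Myom2 is from the annotation.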
